A study of Mus musculus with 12 samples.

Results

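The MHC class II genes followed here were Cd74, H2-Aa, H2-Ab1, H2-Eb1, H2-DMa, H2-DMb1 and Ciita. They were taken by symbol, as the class II chains, the invariant chain and their transactivator, with earlier results of these data known, and made up 7 of the 24340 rows of the expression table. The RNA came from both retinas of 6 p16-3MR mice aged 12 to 16 weeks, which gave 12 libraries. One eye of each mouse had been held at an intraocular pressure (IOP) of 85 to 90 mm Hg for 60 min, the fellow eye was the control, and the retinas were analyzed at day 3. Mice 1, 2 and 5 received ganciclovir (GCV) intraperitoneally at 25 mg/kg once a day, and mice 3, 4 and 6 belonged to the group given no GCV, which the protocol describes as sham-treated with PBS. The 4 groups of 3 retinas were therefore control (ctrl), IOP, control with GCV and IOP with GCV. Every mouse, controls included, carried the 3MR transgene, a fusion of Renilla luciferase, a red fluorescent protein and a viral thymidine kinase driven by the p16Ink4a regulatory region. The kinase turns GCV into a toxin, so GCV acts on cells in which this region is active, and no mice without the transgene were among these libraries.

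Class II molecules show peptides from engulfed proteins to CD4+ T cells. An alpha chain (H2-Aa) and a beta chain (H2-Ab1, H2-Eb1) pair in the endoplasmic reticulum with the invariant chain Cd74, which blocks the groove until endosomal proteases cut it away. H2-DM, made of H2-DMa and H2-DMb1, then removes the remaining fragment and lets peptides bind. Ciita does not bind DNA itself but is recruited by the RFX, NF-Y and CREB proteins seated on the X and Y boxes of class II promoters, and interferon gamma raises Ciita through factors that include Irf1. In the eye, class II is known mainly from microglia, macrophages and dendritic cells, and is scarce in neurons.

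The promoters of the chain genes are shown because class II promoters are known to share these boxes. RefSeq windows of 250 bases before to 50 bases after an annotated start (GRCm38.p6, the mm10 build) were used for H2-Aa, H2-Eb1, H2-DMb1 and H2-DMa and not for the other 3 members. Those of H2-Aa, H2-Eb1 and H2-DMb1 are printed 5′ to 3′ on the strand of the gene. Capitals mark the letters that were searched, which were picked after the sequences had been seen. They were TGATTGG for the core of the Y box, GCAACT and TGATGATG for parts of the X box, and TGACGTCA, the cyclic AMP response element, all on both strands.
H2-Aa, chr17:34287774-34288073, minus strand: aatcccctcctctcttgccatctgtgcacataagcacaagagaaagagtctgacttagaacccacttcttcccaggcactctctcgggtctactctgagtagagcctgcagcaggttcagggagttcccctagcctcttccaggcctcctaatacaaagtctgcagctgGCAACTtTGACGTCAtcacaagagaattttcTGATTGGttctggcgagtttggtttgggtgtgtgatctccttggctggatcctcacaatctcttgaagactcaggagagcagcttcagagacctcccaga
H2-Eb1, chr17:34305617-34305916, plus strand: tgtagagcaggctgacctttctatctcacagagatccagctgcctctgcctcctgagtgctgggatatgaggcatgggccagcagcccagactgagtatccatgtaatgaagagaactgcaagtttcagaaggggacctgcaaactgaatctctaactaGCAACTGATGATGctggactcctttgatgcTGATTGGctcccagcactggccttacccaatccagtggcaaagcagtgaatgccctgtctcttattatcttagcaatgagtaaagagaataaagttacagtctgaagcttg
H2-DMb1, chr17:34152941-34153240, plus strand: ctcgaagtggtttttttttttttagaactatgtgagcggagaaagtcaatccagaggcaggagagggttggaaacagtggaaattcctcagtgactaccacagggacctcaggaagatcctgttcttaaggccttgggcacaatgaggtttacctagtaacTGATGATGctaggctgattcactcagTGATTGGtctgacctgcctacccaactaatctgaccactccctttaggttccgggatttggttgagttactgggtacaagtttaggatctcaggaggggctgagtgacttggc

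In H2-Aa, GCAACT began 81 bases, TGACGTCA 74 bases and TGATTGG 50 bases before the start. In H2-Eb1 the order was the same, with GCAACT at 91, TGATGATG at 86 and TGATTGG at 61 bases, and GCAACT and TGATGATG overlapped by their last and first letters. In H2-DMb1, TGATGATG lay 89 and TGATTGG 63 bases before the start. The upstream letters thus began 24 to 31 bases before the Y box core in each of the 3 windows. Of all 32851 windows in the table, 7.82% held TGATTGG, 10.9% GCAACT, 1.44% TGATGATG and 1.79% TGACGTCA. The Y box core together with any of the others, in any order and at any spacing, was in 1.1%. Because the letters were picked with the printed sequences in view, these shares are a description and no test. The 2 windows of H2-DMa held 0 matches to the letters, which says only that these letters are not in those windows. They lie at 34122582 to 34122881 and at 34125268 to 34125567 of chromosome 17. The first overlaps the annotated extent of the gene Brd2 (34112019 to 34122814), and no other window of H2-DMa was searched.

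Values are FPKM, fragments per kilobase of transcript scaled to the size of the library, so levels of different genes can be set side by side. The unit was inferred from the values. Estimated depth ran from 6860000 to 9060000 fragments in 11 libraries and was 4000000 in the IOP retina of mouse 6, the shallowest. The 10 retinal markers summed to 29980 FPKM or more in every library, as retina should, and 3 of them fell after IOP by the test used below, namely Glul and Rlbp1 of Mueller glia and Rbpms of ganglion cells (1 with the mouse as a block, 0 without both eyes of mouse 6). Lens transcripts were present as well, with summed levels of 10 lens genes of 6.13 to 6533 FPKM in control and 94.2 to 5967 FPKM in IOP-treated retinas.

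All 7 genes were higher in the IOP-treated than in the control retina of all 6 mice, which 10.7% of the 18509 rows above 0 in any library also were. For 5 of them (Cd74, H2-Aa, H2-Ab1, H2-Eb1 and H2-DMb1) every IOP-treated retina lay above every control retina, against 5.47% of those rows. The 7 levels summed to 8.07 to 47.3 FPKM in control retinas, with a median of 16.4, and to 168 to 428 FPKM in IOP-treated retinas, with a median of 276. In bulk tissue, more cells of a type that makes these RNAs and more RNA per cell cannot be told apart.

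**Figure D1:**
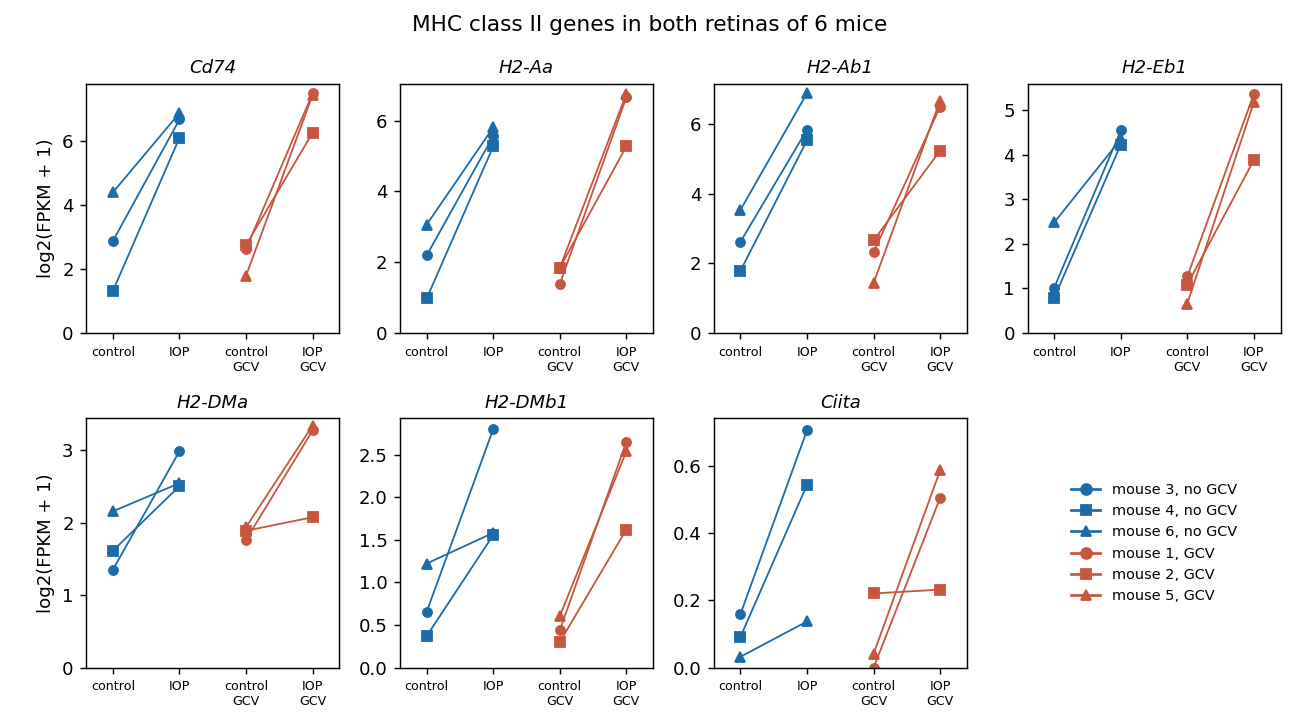
Level of each MHC class II gene as log2(FPKM + 1) in the control and IOP-treated retina of each mouse, with a line joining the eyes of 1 mouse, blue without and red with GCV; each panel has its own scale. All 7 genes are higher at the IOP end of every line, and the IOP-treated retina of mouse 2 is the lowest of the GCV group for each gene.

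The invariant chain Cd74 was the most abundant of these RNAs in every IOP-treated retina except that of mouse 6. Without GCV it stood at 6.32, 1.49 and 19.95 FPKM in the control retinas of mice 3, 4 and 6 and at 100.2, 67.1 and 115 FPKM in their IOP-treated retinas. With GCV it stood at 5.16, 5.70 and 2.45 FPKM in the control retinas of mice 1, 2 and 5 and at 176, 74.7 and 171 FPKM in their IOP-treated retinas. The control retina of mouse 6 was the highest of the controls and still lay under every IOP-treated retina. Within a mouse the fold ran from 5.78 in mouse 6 to 69.7 in mouse 5. Ranked among all rows by level, Cd74 moved from place 3947 to 11809 in control retinas to place 311 to 1055 after IOP.

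The alpha chain H2-Aa showed the same order of retinas in the controls without GCV, at 3.57, 0.972 and 7.36 FPKM in mice 3, 4 and 6, and reached 46.3, 37.6 and 55.0 FPKM after IOP. With GCV it went from 1.61, 2.59 and 2.58 FPKM in mice 1, 2 and 5 to 100, 37.6 and 107 FPKM. Its within-mouse folds were 7.46 to 62.2, with a median of 26.6. Mice 1 and 5 thus reached higher levels than any mouse without GCV, whereas mouse 2 did not.

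H2-Ab1, the beta chain that pairs with H2-Aa, stood at 5.15, 2.46 and 10.6 FPKM in the control retinas of mice 3, 4 and 6 and at 56.3, 45.4 and 118 FPKM in the IOP-treated ones. In mice 1, 2 and 5, which received GCV, it went from 3.99, 5.32 and 1.70 FPKM to 89.6, 36.7 and 101 FPKM. Here the highest single value belonged to a retina without GCV, the IOP-treated retina of mouse 6. Relative to H2-Ab1, the level of H2-Aa was 0.396 to 1.52 in control and 0.468 to 1.12 in IOP-treated retinas, so the ranges of the alpha-to-beta ratio overlapped.

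H2-Eb1, the beta chain of the E molecule, was lower than H2-Ab1 in each of the 12 libraries, at 0.164 to 0.446 of its level. It stood at 1.03, 0.730 and 4.58 FPKM in control retinas of mice 3, 4 and 6 and at 22.3, 17.7 and 19.3 FPKM after IOP. With GCV the levels were 1.41, 1.12 and 0.581 FPKM in control retinas and 39.9, 13.7 and 35.2 FPKM in IOP-treated retinas of mice 1, 2 and 5. The gene of its alpha partner is annotated as a pseudogene (H2-Ea-ps) in the reference strain and was listed at 0 in all 12 libraries.

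Both H2-DM genes were less abundant than the chains above in every IOP-treated retina. H2-DMa stood at 1.55, 2.06 and 3.46 FPKM in the control retinas of mice 3, 4 and 6 and at 6.92, 4.67 and 4.83 FPKM after IOP. With GCV it was 2.39, 2.70 and 2.83 FPKM in control retinas of mice 1, 2 and 5 and 8.64, 3.21 and 9.10 FPKM in IOP-treated ones. The groups overlapped, since the IOP-treated retina of mouse 2 lay under the control retina of mouse 6, and the fold within a mouse was only 1.19 in mouse 2 and 1.40 in mouse 6.

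H2-DMb1 started lower, at 0.577, 0.294 and 1.33 FPKM in control retinas of mice 3, 4 and 6, and stood at 5.96, 1.94 and 1.99 FPKM after IOP. With GCV it went from 0.355, 0.233 and 0.521 FPKM to 5.28, 2.08 and 4.81 FPKM in mice 1, 2 and 5. The ratio of H2-DMb1 to H2-DMa was 0.0862 to 0.386 in control and 0.413 to 0.862 in IOP-treated retinas, 2 ranges that did not overlap, though in mouse 6 it went only from 0.386 to 0.413, with folds of 1.496 for H2-DMb1 and 1.397 for H2-DMa. The control values of H2-DMb1 rest on 2.20 to 14.3 estimated fragments, and the difference between the genes was not tested. Of the 50-base stretches of H2-DMb1 transcripts, 22.7% also occur in H2-DMb2, a near copy beside it, so some of its reads may be shared. The other members shared 0 such stretches with another gene, except H2-Aa with 0.488%.

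Ciita, the transactivator, was near the limit of detection. Without GCV it stood at 0.117, 0.0658 and 0.0229 FPKM in control retinas of mice 3, 4 and 6 and at 0.630, 0.457 and 0.09996 FPKM in the IOP-treated ones. With GCV it was listed at 0 in the control retina of mouse 1 and stood at 0.165 and 0.0291 FPKM in those of mice 2 and 5, against 0.418, 0.174 and 0.500 FPKM after IOP. By the estimated depth the control values rest on 0 to 7.39 fragments and the IOP values on 2.33 to 29.1. In mouse 2 the eyes stood at 7.39 and 6.99 estimated fragments, so its fold of 1.06 is no difference that this depth could show. The groups overlapped, because the IOP-treated retina of mouse 6 lay under 2 of the control retinas.

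The members were then tested with limma on log2(FPKM + 1), with Benjamini-Hochberg adjustment over all 18509 rows and a threshold of 0.05. Differences on this scale understate the change of genes near or below 1 FPKM. Over the 6 mice, 7 of 7 members rose, against 6.76% of all rows. The chains and Cd74 rose most. H2-Aa rose by 4.003 (SE 0.36, adjusted p = 0.000332) and Cd74 by 4.17 (SE 0.46, adjusted p = 0.000833). H2-Ab1 rose by 3.72 (SE 0.39, adjusted p = 0.000606) and H2-Eb1 by 3.37 (SE 0.33, adjusted p = 0.000427). H2-DMb1 rose by 1.53 (SE 0.27, adjusted p = 0.00812). H2-DMa rose by 1.00 (SE 0.24, adjusted p = 0.0269) and Ciita by 0.36 (SE 0.099, adjusted p = 0.0429), and both calls were lost with the mouse as a block, at adjusted p = 0.0574 and 0.0655. When each library was left out in turn, H2-DMa was called in 5 and Ciita in 3 of 12 limma fits, and the other 5 members in all 12.

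**Figure D2:**
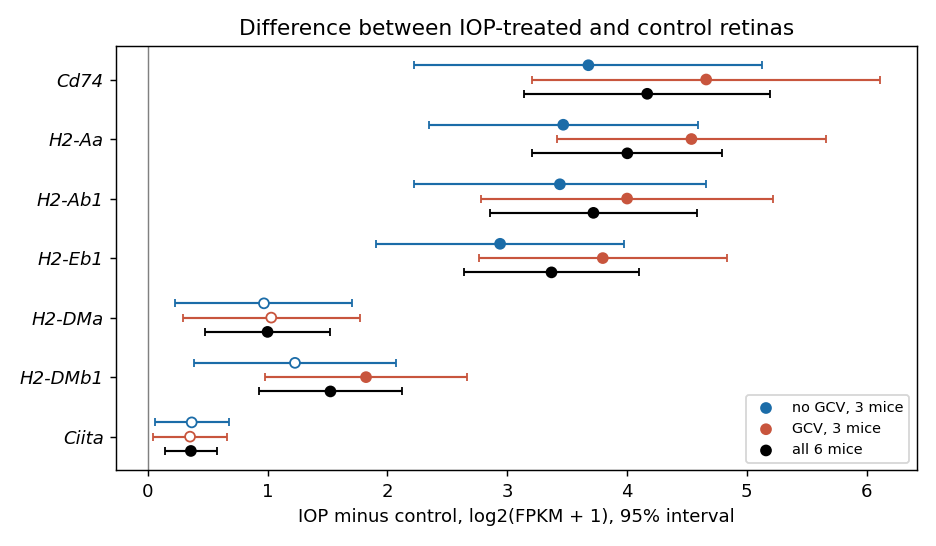
Difference between IOP-treated and control retinas for each member on the log2(FPKM + 1) scale, with the 95% interval of limma, for 3 mice without GCV (blue), 3 mice with GCV (red) and all 6 mice (black); filled points passed the adjusted p threshold of 0.05. The 4 upper genes lie between 2.94 and 4.66 in every comparison, the H2-DM genes between 0.97 and 1.82, and Ciita at 0.35 to 0.37.

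Without GCV, 4 of 7 members rose, against 1.42% of all rows. These were Cd74 (3.68, SE 0.65, adjusted p = 0.0258), H2-Aa (3.47, SE 0.51, adjusted p = 0.0126), H2-Ab1 (3.44, SE 0.55, adjusted p = 0.0168) and H2-Eb1 (2.94, SE 0.47, adjusted p = 0.0168). H2-DMb1 (1.23, adjusted p = 0.159), H2-DMa (0.97, adjusted p = 0.191) and Ciita (0.37, adjusted p = 0.220) did not pass. With the mouse as a block only H2-Aa and H2-Ab1 passed, at adjusted p = 0.0391 and 0.0499, and Cd74 and H2-Eb1 stood at 0.0559 and 0.0621. The limma count also fell to 0 without the control retina of mouse 3, to 1 without the mouse 4 control and to 2 when the IOP-treated retina of mouse 3 was left out, while the 4 differences stayed at 2.62 or more whichever library was left out.

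With GCV, 5 of 7 members rose, against 1.65% of all rows. Cd74 rose by 4.66 (SE 0.65, adjusted p = 0.00800), H2-Aa by 4.54 (SE 0.51, adjusted p = 0.00377), H2-Ab1 by 4.001 (SE 0.55, adjusted p = 0.00754) and H2-Eb1 by 3.80 (SE 0.47, adjusted p = 0.00567). H2-DMb1 rose by 1.82 (SE 0.38, adjusted p = 0.0426), a call that was lost with the mouse as a block (adjusted p = 0.0921) and without any library of this arm except the IOP-treated retina of mouse 2. H2-DMa (1.03, adjusted p = 0.144) and Ciita (0.35, adjusted p = 0.206) did not pass by limma. Without the IOP-treated retina of mouse 2, H2-DMa passed as well (adjusted p = 0.0141).

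Whether GCV changed the response was asked of the difference between the 2 IOP effects. By limma 0 of 7 members passed, with adjusted p of 0.997 or more, and none had an unadjusted p under 0.05. Over all rows 0% passed, and 358 had an unadjusted p under 0.05. The estimates were 0.98 for Cd74 (95% interval -1.07 to 3.04), 1.07 for H2-Aa (-0.52 to 2.66), 0.56 for H2-Ab1 (-1.16 to 2.28) and 0.86 for H2-Eb1 (-0.61 to 2.33), higher with GCV. They were 0.59 for H2-DMb1 (-0.60 to 1.79), 0.06 for H2-DMa (-0.98 to 1.11) and -0.01 for Ciita (-0.45 to 0.43). With 1 library or both eyes of mouse 6 left out, the estimate ran from 0.22 to 1.75 for Cd74, 0.58 to 1.62 for H2-Aa, 0.12 to 1.01 for H2-Ab1, 0.32 to 1.32 for H2-Eb1 and 0.16 to 1.00 for H2-DMb1, each lowest in a fit without the control retina of mouse 6. The intervals of the chains reach from a smaller response under GCV to one larger by more than 2 on the log2 scale, so 3 mice a group do not show whether the responses were alike.

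GCV was also compared within each kind of eye. In IOP-treated retinas Cd74 averaged 94.2 ± 24.6 FPKM in the group given no GCV and 140.5 ± 57.1 FPKM in the GCV group (SD, n = 3 retinas each), H2-Aa 46.3 ± 8.69 and 81.5 ± 38.2, H2-Ab1 73.1 ± 38.9 and 75.8 ± 34.4, and H2-Eb1 19.8 ± 2.31 and 29.6 ± 14.0. The groups overlapped for each of the 7 genes, 0 of 7 passed by limma (adjusted p of 0.819 or more), and 0% of all rows passed, with 774 at an unadjusted p under 0.05. In control retinas Cd74 averaged 9.26 ± 9.57 FPKM in mice given no GCV and 4.44 ± 1.74 FPKM in those given it, and again 0 of 7 members and 0% of rows passed by limma, with 295 rows at an unadjusted p under 0.05. The estimate for Cd74 in control retinas, -0.48, became 0.29 without mouse 6. None of the 7 members had an unadjusted p under 0.05 in either comparison.

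In order of level, Cd74 stood first in both group means after IOP, followed by H2-Ab1 and H2-Aa, H2-Eb1, H2-DMa, H2-DMb1 and Ciita. The order of H2-Ab1 and H2-Aa varied, since H2-Aa was the higher in the IOP-treated retinas of mice 1, 2 and 5 and the lower in those of mice 3, 4 and 6. This order, which follows GCV after IOP, was noticed after the values had been seen and was not tested. The control retinas of mice 1 and 2 did not follow it, at ratios of H2-Aa to H2-Ab1 of 0.403 and 0.488, and that of mouse 5 did, at 1.52. In control retinas H2-DMa took a larger part. Its ratio to H2-Ab1 was 0.302 to 1.66 there and 0.0411 to 0.123 after IOP. Cd74, H2-Aa, H2-Ab1 and H2-Eb1 together made up 68.4% to 89.8% of the summed level of the 7 genes in control and 94.3% to 97.8% in IOP-treated retinas.

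H2-DMa, H2-DMb1, H2-Ab1, H2-Aa and H2-Eb1 lie within 197 kb of chromosome 17 (mm10), at 34119693 to 34139101, 34153191 to 34160229, 34263227 to 34269418, 34282744 to 34287823 and 34305867 to 34316674. Cd74 (chromosome 18, 60803849 to 60812652) and Ciita (chromosome 16, 10480014 to 10531064) lie elsewhere. The class II genes between and beside the 5 members were low. H2-Oa and H2-Ob, which form the H2-DM inhibitor H2-DO, differed by 0.65 (adjusted p = 0.0594) and 0.16 (adjusted p = 0.0863) by limma over the 6 mice, H2-DMb2 by 0.20 and H2-Eb2 by 0.08. Of these 4 other class II chains 0 passed, at summed levels of 0.104 to 0.445 FPKM in control and 0 to 2.46 FPKM in IOP-treated retinas. The class I peptide genes in the same stretch did pass, with Psmb9 at 2.07, Tap1 at 2.48, Psmb8 at 2.39 and Tap2 at 1.07. Brd2, a chromatin reader whose annotated extent overlaps that of H2-DMa, was at 0.25 (adjusted p = 0.168), and whether the counting used strand is not stated.

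**Figure D3:**
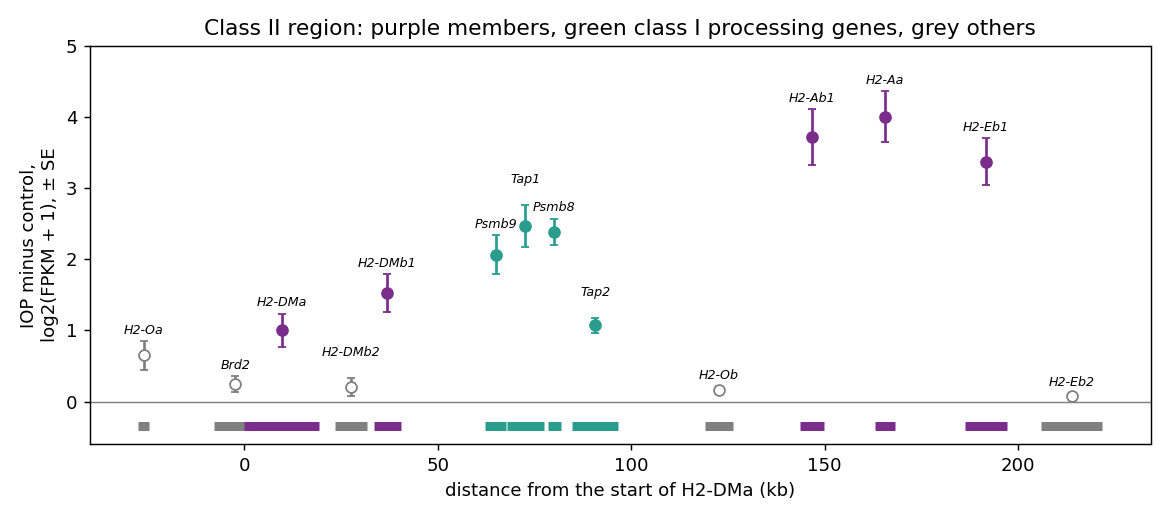
Difference between IOP-treated and control retinas over 6 mice, on the log2(FPKM + 1) scale with its SE, for genes along the class II region, by distance in kb from the start of H2-DMa; bars under the points show each gene's extent and filled points passed the limma threshold. The 3 chain genes on the right lie between 3.37 and 4.003, while H2-Ob and H2-Eb2 on either side of them are at 0.16 and 0.08.

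The proteins that seat Ciita on its promoters were also measured, and 0 of 7 passed over the 6 mice by limma. Rfx5 differed by -0.22 (adjusted p = 0.216), Rfxap by -0.36 (adjusted p = 0.105), Rfxank by 0.16 and Creb1 by 0.29 (adjusted p = 0.169). The NF-Y subunits Nfya, Nfyb and Nfyc differed by 0.12, -0.05 and 0.07. Their summed level was 73.3 to 77.9 FPKM in control and 73.1 to 96.6 FPKM in IOP-treated retinas. The factors were readily detected in control retinas.

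Of 7 measured genes on the route from interferon gamma to Ciita, 2 rose and 1 fell. Irf1, which acts on the Ciita promoter, rose by 1.83 (adjusted p = 0.00423 by limma). Jak1, a receptor kinase, fell by 0.24 (adjusted p = 0.0243), which was lost with the mouse as a block (adjusted p = 0.0604) and without both eyes of mouse 6 (0.0591). Ifngr2 (0.43), Socs1 (0.62), Jak2 (0.30) and Ifngr1 (0.15) did not pass, although Socs1 did without both eyes of mouse 6 (adjusted p = 0.0112 by limma). Interferon gamma itself, Ifng, was listed at 0 in all 12 libraries.

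Among 6 genes of the endosome, where Cd74 is cut and antigen broken down, 4 rose by limma. Ctss, the protease that finishes the cutting of Cd74, rose by 2.98 (adjusted p = 0.00127), from 15.8 to 32.6 FPKM in control to 78.1 to 466 FPKM in IOP-treated retinas. Ifi30, a thiol reductase that opens disulfide bonds of antigens, rose by 2.65 (adjusted p = 0.000955). The proteases Ctsd and Ctsb rose by 1.21 and 0.92 (adjusted p = 0.0174 and 0.0283), calls lost without both eyes of mouse 6, at 0.0624 and 0.0710. Ctsl (0.84) and Lgmn (0.57) were higher in all 6 mice and did not pass.

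Cd74 is also a receptor for the cytokine Mif. Mif (-0.23) and its relative Ddt (0.01) did not pass by limma, while the signaling partners Cd44 and Cxcr4 rose by 2.02 and 2.13 (adjusted p = 0.00150 and 0.0221), Cxcr4 not without both eyes of mouse 6 (0.0663). Of 6 costimulation genes, whose products a T cell reads beside class II, 1 rose. It was Cd274, which encodes the inhibitory ligand PD-L1 (1.42, adjusted p = 0.0377), and it too was lost without mouse 6 (0.0889). Cd80, Cd86, Cd40, Icosl and Pdcd1lg2 differed by 0.36, 0.39, 0.84, 0.55 and 0.13.

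For comparison, 10 of 10 genes of the MHC class I pathway rose over the 6 mice by limma, with a median difference of 2.23, against 3.37 for the class II members and 0.0089 for all rows. B2m, the shared light chain of class I, rose by 3.08 (adjusted p = 0.00137), H2-K1 by 2.64 and H2-D1 by 2.68. Nlrc5, which does for class I what Ciita does for class II, rose by 1.29 (adjusted p = 0.00601). The levels at rest differed more. The class I genes summed to 184 to 287 FPKM in control retinas and 776 to 2916 FPKM after IOP, so class I was far above class II in every control retina. With the mouse as a block 9 of the 10 passed, without Psmb10 (adjusted p = 0.0758).

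**Figure D4:**
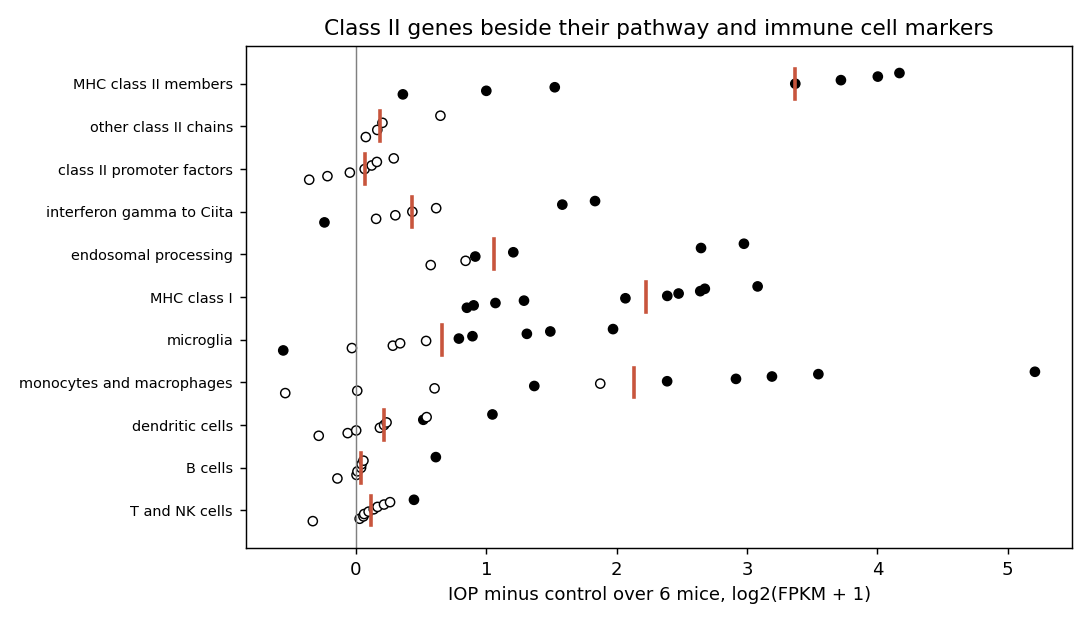
Difference between IOP-treated and control retinas over 6 mice on the log2(FPKM + 1) scale for the class II members, their pathway and immune cell markers; each point is a gene, filled points passed the limma threshold and red bars mark the median of each list. The medians are 0.07 for the promoter factors, 0.04 for B cells and 0.12 for T and NK cells, with Cd79b at 0.61 and Nkg7 at 0.45, the class I genes lie at 0.85 to 3.08, and the monocyte and macrophage markers reach 5.21 for Lyz2.

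Some markers of monocytes and macrophages, cells that can carry class II, were also higher in the IOP-treated retinas. Of 10 monocyte and macrophage markers 6 rose by limma, and their summed level was 14.2 to 52.2 FPKM in control and 160 to 2206 FPKM in IOP-treated retinas. Lyz2 rose by 5.21 (adjusted p = 0.00139), Ms4a7 by 3.19 and Ccr2 by 2.39 (adjusted p = 0.000411). Plac8 rose by 2.92 (adjusted p = 0.000375) and Fn1 by 1.37, the latter not without mouse 6 (0.119). Ly6c2 rose by 3.55 (adjusted p = 0.000836) and was listed at 0 in every control retina except that of mouse 4, at 0.346 FPKM. Cd163 (0.01) and Lyve1 (-0.54), markers of resident macrophages, did not pass, nor did F13a1 (1.87) and Mrc1 (0.60), although Mrc1 passed with the mouse as a block (adjusted p = 0.0299). The part of these cells in the class II result was not tested.

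Retina by retina, Lyz2 and class II shared some of their order, which not every monocyte and macrophage marker did. The control retina of mouse 6, highest of the controls in Cd74, H2-Aa, H2-Ab1, H2-Eb1, H2-DMa and H2-DMb1, also had the highest Lyz2 among controls (40.1 FPKM, against 5.84 to 19.1 in the others). The IOP-treated retina of mouse 2, lowest of the 6 in summed class II level at 168 FPKM, had the lowest Lyz2 of the 6, at 124 FPKM. Mice 1 and 5 parted from this order. Their IOP-treated retinas stood at 176 and 171 FPKM of Cd74 but at 489 and 2050 FPKM of Lyz2. Other markers varied, by Pearson's r of log2(FPKM + 1) with the mean of Cd74, H2-Aa, H2-Ab1 and H2-Eb1. Over the 6 control retinas, among these markers with a mean of at least 1 FPKM, it ran from -0.53 for Lyve1 to 0.863 for F13a1. It was 0.656 for Lyz2 and -0.526 for Ly6c2.

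Of 10 microglial markers, 5 rose and Siglech fell by 0.56 (adjusted p = 0.0145 by limma). Fcrls rose by 1.97 (adjusted p = 0.00106), and Cx3cr1, Olfml3 and Csf1r rose by 0.89, 1.31 and 1.49, of which Csf1r was lost with the mouse as a block (0.0520). Olfml3 and Csf1r also did not pass without both eyes of mouse 6 (0.0698 and 0.0590). P2ry12 (0.28), Tmem119 (0.54), Gpr34 (0.34) and Sall1 (-0.03) did not pass. The 10 summed to 42.2 to 54.4 FPKM in control and 76.9 to 207 FPKM in IOP-treated retinas. Of 9 dendritic cell markers 2 rose, Itgax by 1.05 (adjusted p = 0.00126) and Clec10a by 0.52 (adjusted p = 0.0455, with the block 0.0662), at sums of 1.72 to 3.00 and 2.64 to 6.52 FPKM. The dendritic cell receptor Flt3 (-0.29) and the factor Zbtb46 (-0.06) did not pass.

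B cells, which also carry class II, left little RNA. Their 8 markers summed to 0.138 to 0.641 FPKM in control and 0.480 to 2.02 FPKM in IOP-treated retinas, Pax5 was listed at 0 in all 12 libraries, and Cd79b alone of 7 tested rose (0.61, adjusted p = 0.0422 by limma, with the block 0.0615). Of 10 T and NK cell markers 1 rose, Nkg7 (0.45, adjusted p = 0.0382, with the block 0.0576), with sums of 1.74 to 2.73 and 2.09 to 3.80 FPKM. Of 6 neutrophil markers measured S100a8 and S100a9 rose, by 3.63 and 2.73 (adjusted p = 0.0142 and 0.0270), S100a9 not without mouse 6 (0.0592), and Mpo was listed at 0 throughout. Of 8 endothelial markers 1 rose (Emcn, 0.58, adjusted p = 0.0440), and 0 of 8 pigment epithelium and 0 of 7 ciliary body, iris and cornea markers passed. Clec10a, Cd79b, Nkg7 and Emcn did not pass without both eyes of mouse 6 (0.107, 0.0742, 0.0829 and 0.0536).

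Summed lens RNA, like summed class II, was higher in the IOP-treated retina in mice 2, 3, 4, 5 and 6, and lens RNA, unlike class II, was lower there in mouse 1. Its part in the class II result was not tested. By limma 5 of 10 lens genes rose with IOP, 7 with the mouse as a block and 0 without both eyes of mouse 6, among them Crybb2 by 4.83 (adjusted p = 0.0298). The control retina of mouse 1 held the most lens RNA of all libraries, 6533 FPKM over the 10 genes, with 14.9 FPKM of summed class II. The IOP-treated retina of mouse 3 held 94.2 FPKM of lens RNA and 239 FPKM of class II.

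The genes whose pattern was most like that of the chains were ranked by Pearson's r of log2(FPKM + 1) with the mean of Cd74, H2-Aa, H2-Ab1 and H2-Eb1 over the 12 libraries, among 12904 other rows with a mean of at least 1 FPKM. The 8 highest were Lgals3bp (0.992), Ifitm3 (0.987), C1qa (0.986), Ms4a6c (0.977), Serping1 (0.976), Ifi30 (0.972), Trim34a (0.970) and Ms4a6d (0.969). These values are a description, since the libraries fall into control and IOP-treated retinas and any gene that rises evenly gains a high r. Within the 6 IOP-treated retinas, 1 from each mouse, r was 0.974 for C1qa, a complement component, 0.905 for Ifitm3 and 0.593 for Trim34a. Of the members outside the mean, H2-DMb1 had 0.923 and H2-DMa 0.885 over the 12 libraries. All 8 genes rose over the 6 mice by limma, from 1.12 for Trim34a to 3.17 for Ms4a6d, and 5 of the 8 were again among the highest 8 with a pseudocount of 0.1.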

How the data were processed

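RNA from 12 retinas of 6 mice was made into TruSeq stranded mRNA libraries and sequenced as paired ends. The authors' methods state that reads on exons of RefSeq genes were counted with HOMER, and the submitters' processing notes name TopHat2, Bowtie2, Cufflinks, Cuffdiff and mm10. The deposited table holds FPKM values, a unit inferred from the values. The step that made them, any scaling between libraries and strand use are not given in the sources used here, and 0 columns were left unused. To estimate depth, small values of 4271 genes that have 1 transcript of 1500 bases or longer (less 170 bases) were read as whole fragments, and 79.7% to 85.6% fell within 0.15 of one. This method was chosen with the values in view.

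In R 4.3.3, limma 3.58.1 was fitted to log2(FPKM + 1) with a mean for each of 4 groups and a trend in the variance, and p was adjusted by Benjamini-Hochberg over the 18509 rows above 0, called at an adjusted p under 0.05. A count test had been the first choice had the table held counts. The eyes of 1 mouse carry its number, so the mouse pairs them by design. The correlation of their deviations from the group means was -0.117 to 0.388 over the 6 mice. Each p of the main fit rests on 1 estimate of the spread shared by the 4 groups, and treats both eyes of a mouse as independent. With the mouse as a block, the p of an IOP comparison rests on the spread of the differences between the eyes of a mouse. All members are named, with up to 3 called genes, the most abundant and the unexpressed genes of each list, and the 8 genes most like the chains. Members of lists given in full are named as well. The members and lists were chosen with earlier results of these data known. The alternatives changed the pseudocount (0.1), or used a filter of 1 FPKM in 3 libraries, the mouse as a block, median-ratio scaling, no trend, only the groups compared, an unadjusted p, and each library left out. Leaving out both eyes of mouse 6 was chosen after seeing the data. Some list genes are counted but not reported singly here. Promoters are RefSeq's, with none used here for Cd74, H2-Ab1 and Ciita. Tables used pandas 2.3.3 and numpy 2.4.6 under Python 3.11.15, and figures matplotlib 3.10.9.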

Additional observations from a re-analysis of the deposited data

How the results depend on the processing

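The direction of the IOP difference was the same for all 7 members in each of the 3 IOP comparisons under every alternative run. Median-ratio factors lay between -0.0019 and 0.020 on the log2 scale. Without GCV the count of members called, 4, was 2 with the mouse as a replicate block. It was 0 to 5 when 1 library or both eyes of mouse 6 were left out. At an unadjusted p under 0.05 by limma the count was 7, and 3501 of all 18509 rows passed there in either direction. With GCV the count of 5 was 4 with the block and 4 to 6 with a library left out. Over the 6 mice the count of 7 was 5 with the block and 5 to 7 with a library left out. Of all 18509 rows, 1351 passed over the 6 mice with the block and 2258 without it, in either direction. Beside the calls named in the report, the block changed no other call of a member. A filter of 1 FPKM in 3 libraries left Ciita out, which gave 6. Of the 8 genes most like the chains, 5 were shared at a pseudocount of 0.1.

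Estimates that changed sign all belonged to the comparisons of GCV, in which 0 members were called, and the cause was not tested. At a pseudocount of 0.1 Ciita was at 0.15 for the difference in IOP effect and at 0.024 for GCV in IOP-treated retinas. With a library left out, the difference in IOP effect ran from -0.18 to 0.11 for Ciita and -0.16 to 0.47 for H2-DMa, which was at -0.23 without both eyes of mouse 6. GCV in IOP-treated retinas ran from -0.23 to 0.50 for H2-Ab1, -0.18 to 0.10 for Ciita and -0.0055 to 0.63 for H2-DMa. GCV in control retinas ran from -0.022 to 0.38 for H2-DMa, -0.074 to 0.036 for Ciita, -1.25 to 0.29 for Cd74, -0.94 to 0.10 for H2-Aa and -0.74 to 0.10 for H2-Eb1, the highest of the last 3 without mouse 6. At the estimated depth, Ciita and the control values of H2-DMb1 rest on few fragments, which limits what can be said of them. Single values have no interval, since the table holds no counts.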
